A study of Mus musculus with 15 samples.

Results

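The genes described here encode the nuclear subunits of respiratory complex I, the NADH:ubiquinone oxidoreductase of the inner mitochondrial membrane. They were taken by name: protein-coding mouse genes whose symbol starts with Ndufa, Ndufb, Ndufc, Ndufs or Ndufv followed by a digit, together with Ndufab1, leaving out the Ndufaf assembly factors, with a mean of at least 10 normalized counts over all libraries. The rule found 38 genes among the 50686 genes of the table. Another 3 symbols of the same form, Ndufs6b, Ndufb4c and Ndufa11b, were processed pseudogenes with means under 10 and were left out.

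RNA came from quadriceps muscle of adult C57BL/6 mice aged 10 months, in 5 groups of 3 animals. M-HF-Ex offspring had a dam that ate a 60% high-fat diet for 6 weeks before mating and ran on a wheel while pregnant, and a lean sire. M-HF-Sed offspring had a dam on the same diet whose wheel was locked. P-HF-Ex offspring had a sire that ate the high-fat diet for 6 weeks and a lean dam that ran while pregnant, and P-HF-Sed offspring had such a sire and a lean dam with a locked wheel. NC-Sed offspring, the control of both arms, came from chow-fed parents with a locked wheel. From the day after birth, every offspring ate chow and had no exercise, and no group joined chow-fed parents with a running dam. In what follows, exercised and sedentary refer to the dam and not to the animals sampled. The labels do not say which animals were littermates or of which sex they were, so the tests measure the spread between these animals, which may be partly shared by litter.

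Complex I takes electrons from NADH at the tip of its matrix arm, passes them along iron-sulfur clusters to ubiquinone, and uses the energy to pump protons through its membrane arm. Its catalytic core consists of nuclear-encoded matrix subunits and of membrane subunits encoded by mitochondrial DNA, and the accessory subunits around this core are nuclear-encoded. In skeletal muscle it is one of the main consumers of the NADH that fuel oxidation yields, and its genes are usually regarded as part of the oxidative programme of the fibre. The 38 genes comprised 3 core subunits of the NADH-oxidizing module (Ndufv1, Ndufv2 and Ndufs1), 4 core subunits of the ubiquinone module (among them Ndufs3, Ndufs7 and Ndufs8), 9 accessory subunits of the matrix arm, 19 of the membrane arm, the acyl carrier protein Ndufab1, and 2 genes that carry the name but not the role. Ndufa4 is now known as a subunit of cytochrome c oxidase, and Ndufa4l2 is its hypoxia-inducible paralog.

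The libraries held 18457663 to 26981745 reads assigned to genes, and 17581 to 20771 genes had a read. The 2 libraries with the fewest such genes were M-HF-Sed 3 and NC-Sed 2. Skeletal muscle markers (Ckm, Acta1, Des, Ttn, Mb and Neb) were abundant in each library, with summed normalized counts between 1642903 and 2401700, while the brown fat gene Ucp1 had no read. Transcripts of 14 hepatocyte genes, foreign to muscle, summed to 81773 normalized counts in M-HF-Sed 2, 10050 in M-HF-Sed 3, 4311 in P-HF-Sed 1 and 3423 in NC-Sed 2, against 188 to 598 in the other libraries. The counts and medians over the members in the exercise comparisons are given with and without these libraries. In a tissue sample, fewer muscle fibres of a type and less RNA per fibre cannot be told apart.

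The 5' flanks of 4 genes are shown first, because these were the genes whose 3 values lay below those of the sedentary group, with no overlap, in both exercise comparisons described further on. Each line gives the RefSeq window of GRCm38.p6 from 250 bases before to 50 bases after a start site, read in the direction of transcription, at chrX:37191189-37191488 for Ndufa1, chr4:40279372-40279671 for Ndufb6, chr3:51408906-51409205 for Ndufc1 and chr13:73328433-73328732 for Ndufs6, all on the minus strand. Capitals mark the ETS core CCGGAAG, read on the other strand in Ndufb6, and the YY1 core AAGATGGCG in Ndufc1 and Ndufs6.
Ndufa1: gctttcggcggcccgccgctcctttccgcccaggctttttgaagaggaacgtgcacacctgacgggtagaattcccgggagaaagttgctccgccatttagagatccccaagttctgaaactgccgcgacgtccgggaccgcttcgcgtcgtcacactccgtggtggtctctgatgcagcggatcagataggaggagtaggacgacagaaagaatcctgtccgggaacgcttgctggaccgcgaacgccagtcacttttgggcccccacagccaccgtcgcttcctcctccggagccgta
Ndufb6: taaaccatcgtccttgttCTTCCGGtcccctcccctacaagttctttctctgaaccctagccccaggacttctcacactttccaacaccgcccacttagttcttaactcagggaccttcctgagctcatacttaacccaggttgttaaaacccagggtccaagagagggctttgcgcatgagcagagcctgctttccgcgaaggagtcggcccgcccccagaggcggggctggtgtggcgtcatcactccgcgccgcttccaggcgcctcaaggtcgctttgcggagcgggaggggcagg
Ndufc1: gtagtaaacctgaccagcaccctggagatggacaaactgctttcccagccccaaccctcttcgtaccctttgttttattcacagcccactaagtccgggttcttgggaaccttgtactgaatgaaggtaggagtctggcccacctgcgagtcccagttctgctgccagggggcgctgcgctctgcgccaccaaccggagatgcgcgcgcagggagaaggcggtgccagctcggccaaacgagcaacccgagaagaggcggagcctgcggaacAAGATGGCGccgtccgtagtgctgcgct
Ndufs6: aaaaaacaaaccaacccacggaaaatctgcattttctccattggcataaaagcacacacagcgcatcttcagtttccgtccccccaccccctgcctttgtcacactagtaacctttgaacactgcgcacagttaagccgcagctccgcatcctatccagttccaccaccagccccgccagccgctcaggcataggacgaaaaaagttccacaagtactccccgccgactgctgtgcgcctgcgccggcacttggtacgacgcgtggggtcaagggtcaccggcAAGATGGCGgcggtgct
The YY1 core began 22 bases downstream of the RefSeq start in Ndufc1 and 33 bases downstream in Ndufs6, and the ETS core of Ndufb6 lay 232 bases upstream. The start sites used by GENCODE and RefSeq differed by 75 bases for Ndufa1, 33 for Ndufc1, 60 for Ndufs6 and 0 for Ndufb6. No ETS, YY1 or NRF1 core (GCGCATGCG) was found in the Ndufa1 window, and no match in these 4 windows overlapped another.

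RefSeq held such a window for 33 of the 38 genes, and Ndufa2, Ndufa4l2, Ndufb9 and Ndufs1 were among those without one. Both strands were searched. The YY1 core occurred in 5 of the 33 windows (15.2%), against 3.24% of the windows of 9748 protein-coding genes that were tested, and the other 3 genes that held it were Ndufa9, Ndufs4 and Ndufs7. The NRF1 core occurred in 2 windows, those of Ndufa8 and Ndufa11 (6.06%, against 3.7% of all), and the ETS core in 4, those of Ndufb6, Ndufb7, Ndufs3 and Ndufs8 (12.1%, against 17.9% of all). A TATAAA box was present in 4 windows (12.1%, against 7.29% of all). These are matches of letters within short windows, and no binding was measured. For 9 of the 38 genes (23.7%, against 9.93% of 12406 protein-coding genes tested) another protein-coding gene started on the opposite strand within 1000 bases, among them Rnf113a1 beside Ndufa1 and Rps28 beside Ndufa7.

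Expressed per kilobase of the principal transcript, the level of the members spanned a wide range. Among the highest were Ndufa4 with a mean of 7844.4 normalized counts per kilobase, Ndufb9 with 7567.4, Ndufb8 with 7487.0 and Ndufa13 with 7180.7. At the other end stood Ndufa4l2 with 121.3 normalized counts per kilobase, Ndufb2 with 127.9, Ndufb4 with 152.9 and Ndufab1 with 174.4. The order depends on the transcript chosen as the length: Ndufab1 took rank 35 on the principal transcript and rank 37 over the union of annotated exons. Larger moves were those of Ndufb8, from rank 4 to rank 20, and of Ndufb7, from rank 14 to rank 33, while Ndufb9 kept rank 3. Ndufb4, Ndufab1, Ndufa11 and Ndufs6 have near-identical processed copies elsewhere in the genome, so that reads may have been lost or shared between copies, and their levels are uncertain.

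The first question of the design is whether exercise of the dam during pregnancy is accompanied by another level of these genes in the adult muscle of the offspring. In both arms the members were mostly lower in offspring of exercised dams, by small amounts. In the paternal arm 38 of 38 members (100%) had a lower mean of log2 values in P-HF-Ex than in P-HF-Sed, with a median log2 difference of -0.12 and a range from -0.34 to -0.03, whereas 48.2% of the 13499 genes tested were lower and their median was 0.01. In the maternal arm 29 of 38 members (76.3%) were lower in M-HF-Ex than in M-HF-Sed, with a median of -0.12 and a range from -0.42 to 0.30, against 49.6% of all genes and a median of 0.00. No single gene passed an adjusted p of 0.05: limma with Benjamini-Hochberg adjustment over 13499 genes called 0 members and 0% of all genes in either comparison.

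At an unadjusted p under 0.05, limma gave 9 members in the maternal arm (Ndufa2, Ndufa8, Ndufb6, Ndufb7, Ndufb8, Ndufc1, Ndufc2, Ndufs6 and Ndufv3). These were 23.7% of the members and all were lower, while 5.33% of all genes tested were lower at that level. In the paternal arm limma gave 0 members, and 1.93% of all genes tested were lower at that level. edgeR, DESeq2 and limma voom, run on whole reads recovered from the table, also called 0 members in both comparisons. The 9 became 0 without M-HF-Sed 3, 3 without M-HF-Ex 1, 2 without M-HF-Ex 3, 4 without M-HF-Sed 1, 16 without NC-Sed 2 and 14 without NC-Sed 3. The NC-Sed animals are not in this comparison, and leaving 1 out changes only the spread estimated over all groups. The 0 of the paternal arm became 5 without P-HF-Sed 3. Counting instead the genes whose 3 exercised values all lay below the 3 sedentary values, 16 members (42.1%) did so in the maternal arm, against 8.61% of all genes, and 9 members (23.7%) in the paternal arm, against 5.50% of all genes. Without M-HF-Sed 3 and NC-Sed 2 these counts were 18 members and 9 members, with 11.2% and 5.5% of all genes. The paternal values could not change, because neither library is in the paternal groups. Without the 4 libraries that held hepatocyte transcripts they were 31 members (81.6%, against 20.4% of all genes) in the maternal arm, where M-HF-Sed was then 1 animal, and 19 members, against 10.9% of all genes, in the paternal arm, where P-HF-Sed was 2 animals, and fewer animals make it easier not to overlap.

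**Figure D1:**
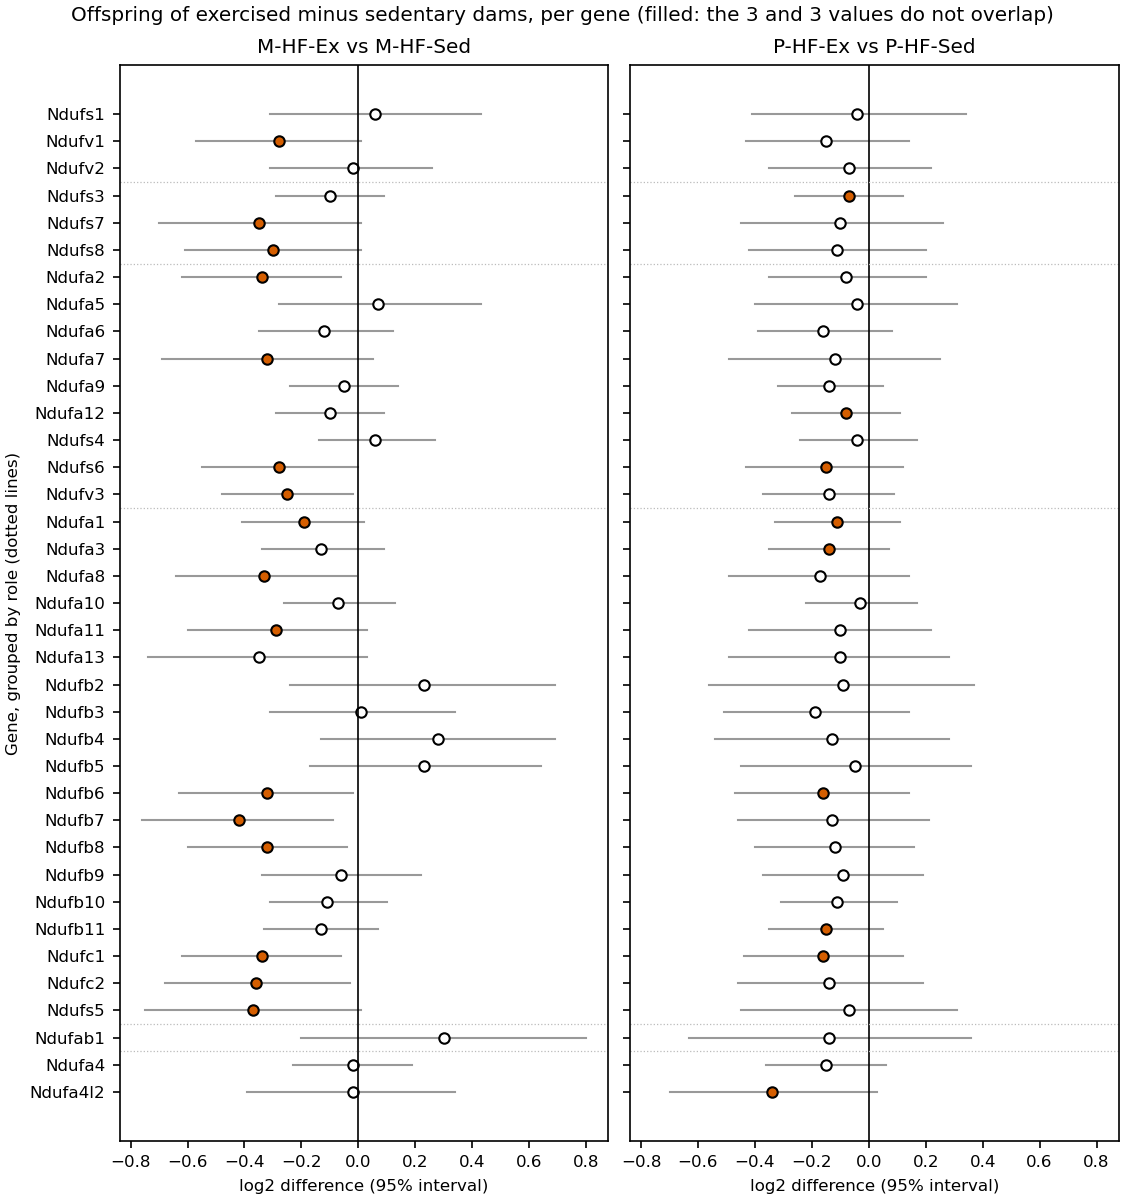
Log2 difference (x axis, with its 95% interval from limma) of 37 of the 38 genes (y axis, grouped by role) for offspring of exercised against sedentary dams in the maternal arm (left) and the paternal arm (right). Filled points mark genes whose 3 and 3 values do not overlap, 16 on the left and 9 on the right; all 37 points on the right lie below 0, and on the left those of Ndufb4, Ndufb5, Ndufb2 and Ndufab1 lie farthest above it.

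Because every member was lower in the paternal arm, the 29 members lower in both arms are those lower in the maternal arm. Of the 13499 genes tested, 4160 (30.8%) were lower in both arms. Many pairs of members varied together, as described below, so such counts are not counts of independent genes. The 9 members that were higher in M-HF-Ex than in M-HF-Sed and lower in P-HF-Ex than in P-HF-Sed included Ndufs1, Ndufs4, Ndufa5, Ndufb2, Ndufb3, Ndufb4, Ndufb5 and Ndufab1. In all, 4 members had no overlap in both arms, namely Ndufa1, Ndufb6, Ndufc1 and Ndufs6 (10.5% of the members, against 1.03% of all genes tested), and 21 had none in at least 1 (55.3%, against 13.1%). These 4 were picked for their values, which are given as a description.

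Ndufa1, a small X-linked subunit of the membrane arm, had 1448, 1424 and 1402 normalized counts in M-HF-Ex, against 1607, 1589 and 1692 in M-HF-Sed. It had 1448, 1449.9 and 1417 normalized counts in P-HF-Ex, against 1466, 1596 and 1595 in P-HF-Sed, and 1520.0, 1804 and 1371 in NC-Sed. The 6 values of offspring of exercised dams lay within a narrow band, and those of the chow controls spread over and beyond it on both sides. The log2 difference was -0.19 ± 0.10 (SE) in the maternal arm and -0.11 ± 0.10 in the paternal arm.

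Ndufb6, another membrane arm subunit, had 981, 1003 and 929 normalized counts in M-HF-Ex, against 1202, 1018 and 1467 in M-HF-Sed. It had 1079.5, 1066 and 949.5 normalized counts in P-HF-Ex, against 1157, 1129 and 1176 in P-HF-Sed, and 1225, 1346 and 935 in NC-Sed. The lowest M-HF-Sed value was close to the highest M-HF-Ex one, and 1 chow control lay as low as the offspring of exercised dams. The log2 difference was -0.32 ± 0.14 (SE) in the maternal arm and -0.16 ± 0.14 in the paternal arm.

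Ndufc1, a small membrane arm subunit, had 2049, 1947 and 1875 normalized counts in M-HF-Ex, against 2366, 2148 and 2956 in M-HF-Sed. It had 2077, 1995 and 1902 normalized counts in P-HF-Ex, against 2286, 2175 and 2215 in P-HF-Sed, and 2457, 2607 and 1889 in NC-Sed. Here too 1 chow control, NC-Sed 3, shared the range of the offspring of exercised dams. The log2 difference was -0.34 ± 0.13 (SE) in the maternal arm (limma, unadjusted p = 0.0218, adjusted p = 0.516) and -0.16 ± 0.13 in the paternal arm.

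Ndufs6, an accessory subunit of the matrix arm that binds zinc, had 2003, 2149 and 1982 normalized counts in M-HF-Ex, against 2308, 2366 and 2774 in M-HF-Sed. It had 2056, 2009 and 2000.0 normalized counts in P-HF-Ex, against 2106, 2346 and 2299 in P-HF-Sed, and 2486, 2939 and 1965 in NC-Sed. The offspring of exercised dams in both arms were close together, and NC-Sed 2 was the highest of all libraries. The log2 difference was -0.28 ± 0.13 (SE) in the maternal arm and -0.15 ± 0.13 in the paternal arm. Ndufs6 overlaps Mrpl36 and Ndufb6 overlaps Smim27 on the opposite strand. In all 16 members overlap a gene on the opposite strand and 6 on the same strand, and the sources used here do not state whether reads were counted by strand, so their values are uncertain to that extent.

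**Figure D2:**
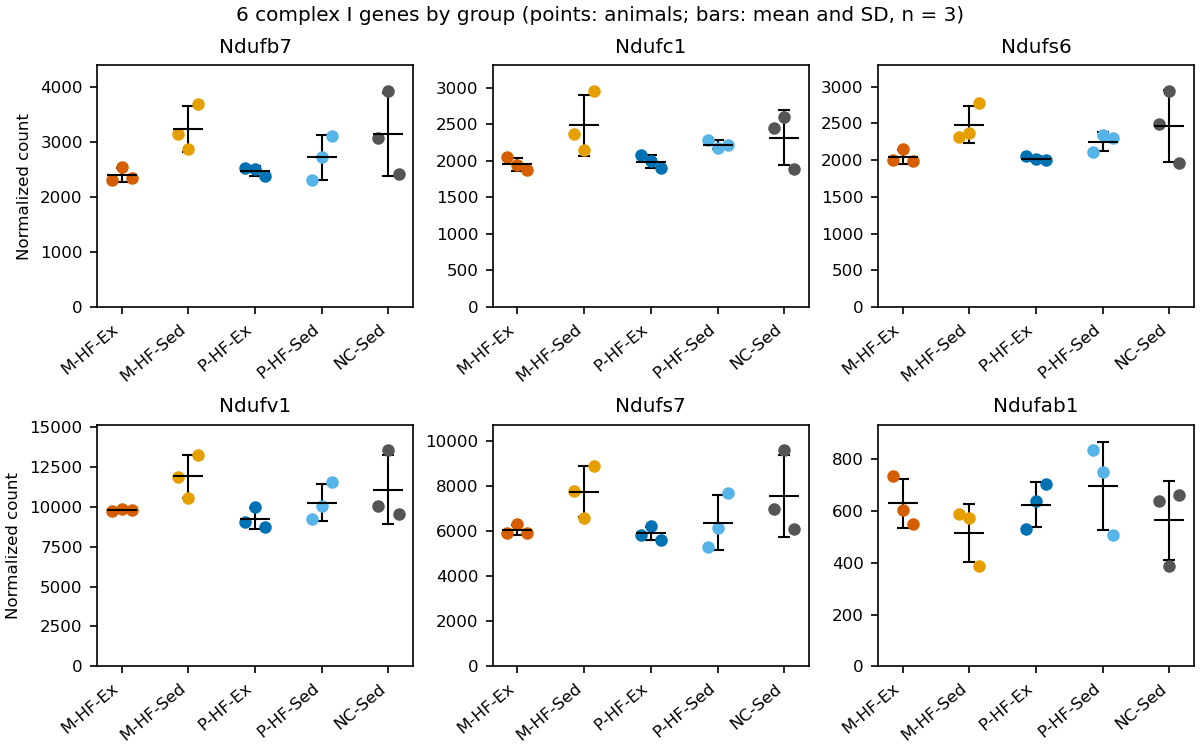
Normalized counts (y axis, from 0) of 6 complex I genes in the 5 groups (x axis); each point is 1 animal and the bars are the mean and SD of 3. Ndufb7, Ndufc1, Ndufs6, Ndufv1 and Ndufs7 lie lower in M-HF-Ex than in M-HF-Sed with no overlap, and Ndufab1 overlaps throughout.

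Among the core subunits of the NADH module, Ndufv1, which binds NADH and the flavin, was the lower one. Ndufv1 had 9730.4, 9865 and 9800.2 normalized counts in M-HF-Ex, against 11902, 10596 and 13275 in M-HF-Sed. It had 9046, 9994 and 8766 normalized counts in P-HF-Ex, against 9228, 10057 and 11550.2 in P-HF-Sed, and 10080.5, 13559 and 9591 in NC-Sed. The maternal groups did not overlap, and the paternal groups did. The log2 difference was -0.28 (95% interval -0.57 to 0.01) in the maternal arm and -0.15 (-0.43 to 0.14) in the paternal arm.

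Ndufs1, the largest subunit and a carrier of iron-sulfur clusters, had 5304, 5132 and 4619 normalized counts in M-HF-Ex, against 5403, 5094 and 4015 in M-HF-Sed. It had 5081, 5618 and 5541 normalized counts in P-HF-Ex, against 6487, 6581 and 3986 in P-HF-Sed, and 5438, 4359 and 5484 in NC-Sed. The groups overlapped, and the lowest values stood in M-HF-Sed 3, P-HF-Sed 3 and NC-Sed 2, the libraries in which Ndufv1 was highest within each group. Ndufv2, which holds another iron-sulfur cluster, had 2999.5, 2763 and 2574 normalized counts in M-HF-Ex, against 3079.7, 2929.6 and 2486 in M-HF-Sed. It had 3010.2, 2933 and 3046 normalized counts in P-HF-Ex, against 3462, 3505 and 2549.7 in P-HF-Sed, and 3256, 2581 and 2986 in NC-Sed. Within M-HF-Sed, P-HF-Sed and NC-Sed its lowest value was in the same library as that of Ndufs1, and all groups overlapped. Between offspring of exercised and sedentary dams, Ndufs1 differed on the log2 scale by 0.06 (95% interval -0.31 to 0.43) in the maternal arm. In the paternal arm it differed by -0.04 (-0.41 to 0.34). For Ndufv2 these differences were -0.02 (-0.31 to 0.26) and -0.07 (-0.35 to 0.22).

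In the ubiquinone module, Ndufs7 and Ndufs8, the carriers of the last iron-sulfur clusters before ubiquinone, were lower in M-HF-Ex than in M-HF-Sed without overlap. Ndufs7 had 5931, 6314 and 5944 normalized counts in M-HF-Ex, against 7792, 6617 and 8904 in M-HF-Sed. It had 5847, 6238 and 5638 normalized counts in P-HF-Ex, against 5321, 6136 and 7729 in P-HF-Sed, and 7009.9, 9604 and 6086 in NC-Sed. The offspring of sedentary dams, chow controls included, spread far more widely than those of exercised dams. Ndufs8 had 2513, 2744 and 2724 normalized counts in M-HF-Ex, against 3268, 2967 and 3619 in M-HF-Sed. It had 2606, 2794 and 2460.3 normalized counts in P-HF-Ex, against 2563, 2786 and 3151 in P-HF-Sed, and 3004, 4074 and 2529.5 in NC-Sed. Both genes were highest in NC-Sed 2 and overlapped between the paternal groups. The log2 difference in the maternal arm was -0.35 (95% interval -0.70 to 0.01) for Ndufs7 and -0.30 (-0.61 to 0.01) for Ndufs8.

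Ndufs3, another core subunit of that module, varied little. Ndufs3 had 2873, 3056 and 2801 normalized counts in M-HF-Ex, against 3146, 2979.7 and 3231 in M-HF-Sed. It had 2915, 2992 and 2961 normalized counts in P-HF-Ex, against 3009.9, 3217 and 3066 in P-HF-Sed, and 3440.4, 3266 and 2945 in NC-Sed. The paternal groups did not overlap although they differed by only -0.07 ± 0.09 (SE) on the log2 scale.

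Of the matrix arm accessory subunits, 7 of 9 had a lower mean in M-HF-Ex than in M-HF-Sed and 9 of 9 in P-HF-Ex than in P-HF-Sed. Ndufa2, a small subunit at the NADH end of the arm, had 2509.9, 2735 and 2691 normalized counts in M-HF-Ex, against 3224, 3105 and 3745 in M-HF-Sed. It had 2826, 2717 and 2577 normalized counts in P-HF-Ex, against 2505, 2881 and 3217 in P-HF-Sed, and 3027, 3615 and 2569 in NC-Sed. The maternal groups were well apart, by -0.34 ± 0.13 (SE) on the log2 scale (limma, unadjusted p = 0.0191, adjusted p = 0.516), while the paternal groups overlapped. Ndufv3, an accessory subunit of the NADH module, had 2186, 2546 and 2262 normalized counts in M-HF-Ex, against 2774, 2636 and 2887 in M-HF-Sed. It had 2375, 2259 and 2258 normalized counts in P-HF-Ex, against 2354, 2568 and 2691 in P-HF-Sed, and 2796, 3120.1 and 2383 in NC-Sed. All 6 values of offspring of exercised dams lay below all 3 maternal sedentary values, and P-HF-Ex lay below the 3 chow controls.

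Ndufa7 had 2484, 2752 and 2593 normalized counts in M-HF-Ex, against 3094, 2910.3 and 3859 in M-HF-Sed. It had 2482, 2420.5 and 2353 normalized counts in P-HF-Ex, against 2194, 2450.4 and 3402 in P-HF-Sed, and 3177, 3968 and 2503 in NC-Sed. The range within P-HF-Sed and within NC-Sed was wider than any difference between group means. Ndufa9, which binds NADPH near the ubiquinone module, had 3728, 3711 and 3517 normalized counts in M-HF-Ex, against 3948, 3737 and 3665 in M-HF-Sed. It had 3631, 3756 and 3703 normalized counts in P-HF-Ex, against 4109.5, 4367 and 3727 in P-HF-Sed, and 3796, 4036 and 3897 in NC-Sed. The exercised and sedentary groups overlapped in each arm, with log2 differences of -0.05 ± 0.09 (SE) in the maternal arm and -0.14 ± 0.09 in the paternal arm. Both exercised groups lay below the 3 chow controls without overlap. Ndufa5 had 2209, 2251 and 1994 normalized counts in M-HF-Ex, against 2270.2, 2214 and 1693 in M-HF-Sed. It had 2193, 2302 and 2416 normalized counts in P-HF-Ex, against 2670.4, 2716 and 1838 in P-HF-Sed, and 2542, 1876 and 2610.5 in NC-Sed. Each sedentary group held 1 library well below its other ones. The remaining matrix arm members, Ndufs4, Ndufa6 and Ndufa12, had log2 differences between -0.12 and 0.06 in the maternal arm and between -0.16 and -0.04 in the paternal arm.

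Of the membrane arm accessory subunits, 15 of 19 had a lower mean in M-HF-Ex than in M-HF-Sed and 19 of 19 in P-HF-Ex than in P-HF-Sed. Ndufb7, a cysteine-rich subunit on the intermembrane space side at chr8:83566671-83571626 (GRCm38, plus strand), had the smallest unadjusted p of the members in the maternal arm and over the 5 groups. Ndufb7 had 2322, 2544 and 2346 normalized counts in M-HF-Ex, against 3153, 2880.4 and 3691 in M-HF-Sed. It had 2537, 2519 and 2379.7 normalized counts in P-HF-Ex, against 2317, 2734 and 3119 in P-HF-Sed, and 3085, 3931 and 2418 in NC-Sed. The maternal groups were clearly separate and the paternal ones overlapped. Its log2 difference was -0.42 ± 0.16 (SE) in the maternal arm (limma, unadjusted p = 0.0161, adjusted p = 0.516), and was -0.33 without M-HF-Sed 3 and NC-Sed 2, and -0.22 after a trend with transcript GC content was removed from each library.

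Ndufb8, which lies at the far end of the membrane arm, had 4449, 4850.0 and 4355 normalized counts in M-HF-Ex, against 5643, 5178 and 6194 in M-HF-Sed. It had 4621, 4849 and 4349 normalized counts in P-HF-Ex, against 4572, 5082 and 5420.2 in P-HF-Sed, and 5452, 6789.6 and 4562 in NC-Sed. It did not overlap between the maternal groups, where the log2 difference was -0.32 ± 0.13 (SE). Ndufs5, another cysteine-rich subunit of the intermembrane space side, had 466, 556 and 554 normalized counts in M-HF-Ex, against 627, 621 and 793 in M-HF-Sed. It had 552, 552 and 516 normalized counts in P-HF-Ex, against 453, 586 and 685 in P-HF-Sed, and 627, 883 and 555 in NC-Sed. NC-Sed 2 was the highest library and P-HF-Sed 1 the lowest. Ndufa3 had 2685, 3019 and 2762 normalized counts in M-HF-Ex, against 3065, 2890.1 and 3291 in M-HF-Sed. It had 2627, 2629 and 2651 normalized counts in P-HF-Ex, against 2653, 2998 and 3089 in P-HF-Sed, and 3164, 3238 and 2762 in NC-Sed. The 3 P-HF-Ex animals were nearly equal and lay below both P-HF-Sed and NC-Sed without overlap, although the highest of them almost met the lowest P-HF-Sed value. Ndufb11 had 4054, 4648 and 4328 normalized counts in M-HF-Ex, against 4626, 4636 and 5005 in M-HF-Sed. It had 4289, 4200.2 and 4043 normalized counts in P-HF-Ex, against 4346, 4839 and 4713 in P-HF-Sed, and 4495, 5012 and 4309.6 in NC-Sed. The maternal groups overlapped and the paternal groups did not.

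Ndufb4 and Ndufb5, also of the membrane arm, had higher means in M-HF-Ex than in M-HF-Sed. Ndufb4 had 155, 154 and 132 normalized counts in M-HF-Ex, against 146, 123 and 97 in M-HF-Sed. It had 154, 146 and 151 normalized counts in P-HF-Ex, against 176, 199 and 128 in P-HF-Sed, and 179, 125 and 162 in NC-Sed. Ndufb5 had 2555, 2585 and 2288 normalized counts in M-HF-Ex, against 2409.9, 2282 and 1691 in M-HF-Sed. Of Ndufb5, P-HF-Ex had 2545, 2521 and 2765 normalized counts, against 3210.4, 3175 and 1919.6 in P-HF-Sed, and NC-Sed had 2482, 2065 and 2975. In both genes M-HF-Sed 3 was the lowest of all libraries. The log2 difference in the maternal arm was 0.28 (95% interval -0.13 to 0.69) for Ndufb4 and 0.23 (-0.17 to 0.64) for Ndufb5. The acyl carrier Ndufab1, which anchors small accessory subunits and also serves mitochondrial fatty acid synthesis, had 735, 605 and 551 normalized counts in M-HF-Ex, against 589, 573 and 388 in M-HF-Sed. It had 530.1, 641 and 704 normalized counts in P-HF-Ex, against 835, 749.8 and 507 in P-HF-Sed, and 641, 388 and 663 in NC-Sed. Its values overlapped in each comparison, and NC-Sed 2 and M-HF-Sed 3 shared the lowest level.

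For the genes lower in the maternal arm that are listed next, each difference was smaller without M-HF-Sed 3 and NC-Sed 2. NC-Sed 2 is not in this comparison, so the changes rest on leaving out M-HF-Sed 3. The log2 difference of M-HF-Ex against M-HF-Sed was then -0.17 for Ndufa1, -0.19 for Ndufb6, -0.21 for Ndufc1, -0.19 for Ndufs6, -0.26 for Ndufa2 and -0.22 for Ndufv3. It was -0.20 for Ndufv1, -0.24 for Ndufs7, -0.23 for Ndufs8, -0.25 for Ndufb8 and -0.25 for Ndufs5. The sign was reversed for Ndufs1 with -0.07, Ndufa5 with -0.06 and Ndufb3 with -0.08, and remained positive for Ndufb4 with 0.13, Ndufb5 with 0.08 and Ndufab1 with 0.11.

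Of the 2 genes that belong to complex I by name only, Ndufa4 had 4544, 4793 and 4596 normalized counts in M-HF-Ex, against 5013, 4772 and 4371 in M-HF-Sed. It had 4445, 4719.6 and 4622 normalized counts in P-HF-Ex, against 5188, 5592 and 4562 in P-HF-Sed, and 4995, 4581 and 4983 in NC-Sed. The groups overlapped, with log2 differences of -0.02 ± 0.10 (SE) in the maternal and -0.15 ± 0.10 in the paternal arm. Ndufa4l2 had 136, 98 and 124 normalized counts in M-HF-Ex, against 139, 109.9 and 114 in M-HF-Sed. It had 96, 92 and 88 normalized counts in P-HF-Ex, against 112, 106 and 132 in P-HF-Sed, and 112, 136 and 104 in NC-Sed. The 3 P-HF-Ex animals were the lowest of all libraries. The difference from P-HF-Sed was -0.34 ± 0.17 (SE) on the log2 scale (limma, unadjusted p = 0.0681, adjusted p = 0.991), the smallest p among the members in the paternal arm. Without these 2 genes, 27 of 36 members were lower in the maternal arm and 36 of 36 in the paternal arm.

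The 2 exercise differences were also set against each other gene by gene. Of the 38 members, 21 had a lower value (a more negative or less positive difference) in the maternal arm, against 50.4% of all genes, with a median of -0.03. The test of this difference (limma) called 0 members and 0% of all genes at an adjusted p of 0.05, and 0 members at an unadjusted p under 0.05. Ndufb4 had the smallest p, with a difference between the arms of 0.41 (95% interval -0.18 to 0.99), followed by Ndufa2 with -0.26 (-0.65 to 0.13) and Ndufb7 with -0.30 (-0.77 to 0.17). Intervals of this width leave differences of either sign possible for each member.

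Against the chow controls, the offspring of exercised dams again had lower means for most members. In M-HF-Ex 34 of 38 members (89.5%, against 47.4% of all genes) were lower than in NC-Sed, with a median log2 difference of -0.13. In P-HF-Ex 32 of 38 (84.2%, against 50.1% of all genes) were lower, with a median of -0.15. The same NC-Sed libraries serve both comparisons, and each exercised group also enters a comparison with its sedentary group. limma called 0 members in each (0% of all genes). At an unadjusted p under 0.05 it gave 3 members in M-HF-Ex (Ndufb7, Ndufv3 and Ndufb8, 7.89%) and 2 in P-HF-Ex (Ndufv3 and Ndufa7, 5.26%). Of all genes tested, 3.85% and 5.62% were lower at that level. The 3 and 2 members became 15 and 17 without NC-Sed 3, and 0 and 0 without NC-Sed 2. edgeR, DESeq2 and limma voom called 0 members in either comparison.

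No overlap with NC-Sed was found for 1 member in M-HF-Ex (2.63%, against 4.72% of all genes) and for 8 members in P-HF-Ex (21.1%, against 8.70%). Without NC-Sed 2 and M-HF-Sed 3 these were 5 and 12 members, with 8.1% and 12.0% of all genes. The largest log2 differences in M-HF-Ex were -0.37 ± 0.18 (SE) for Ndufs5 and -0.36 ± 0.16 for Ndufb7, with a limma adjusted p of 0.576 for Ndufs5 and 0.566 for Ndufb7. In P-HF-Ex they were -0.39 ± 0.17 for Ndufa7 and -0.34 ± 0.17 for Ndufa4l2, with a limma adjusted p of 0.349 for Ndufa7 and 0.381 for Ndufa4l2. For Ndufv3 the log2 difference was -0.24 ± 0.11 in M-HF-Ex and -0.26 ± 0.11 in P-HF-Ex.

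The parental diet alone was not accompanied by a common direction. In M-HF-Sed 14 of 38 members (36.8%, against 47.0% of all genes) were lower than in NC-Sed and the median log2 difference was 0.03, which was -0.05 with 27 members lower when NC-Sed 3 was left out. In P-HF-Sed 22 of 38 (57.9%, against 49.0% of all genes) were lower and the median was -0.01, which was -0.10 with 24 members lower when NC-Sed 3 was left out, and 0.02 with 12 members lower when NC-Sed 2 was left out. limma called 0 members and 0% of all genes in both, with 0 members at an unadjusted p under 0.05, and edgeR, DESeq2 and limma voom called 0 members. Without NC-Sed 2, 2 members had such a p in M-HF-Sed, and 1 without M-HF-Sed 1. In P-HF-Sed 6 members had such a p without NC-Sed 3, and 6 without P-HF-Sed 3. In M-HF-Sed 1 member, Ndufs4 with all 3 values below the chow controls, had no overlap (2.63%, against 3.58% of all genes). Widest apart were Ndufb4 in M-HF-Sed with -0.35 (95% interval -0.76 to 0.07) and Ndufab1 in P-HF-Sed with 0.31 (-0.18 to 0.81).

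Between the sedentary groups of the arms, 14 of 38 members (36.8%, against 48.3% of all genes) were lower in M-HF-Sed than in P-HF-Sed, and the median log2 difference was 0.04. limma called 0 members (0% of all genes). At an unadjusted p under 0.05 it gave 1 member, Ndufb4, with -0.45 ± 0.19 (SE) and a limma adjusted p of 0.723. This was 2.63% of the members, and 1.52% of all genes tested were lower at that level. The count of members was 14 without P-HF-Sed 3 and 0 without M-HF-Sed 3. Over the 5 groups together, the limma F test called 0 members (0% of all genes). No member had an unadjusted p under 0.05, against 6.71% of all genes, and the smallest was 0.0594 for Ndufb7 (adjusted p = 0.715). This count was 11 without NC-Sed 3 and 4 without P-HF-Sed 3. By group mean, P-HF-Ex was the lowest group for 18 members, M-HF-Ex for 13 and M-HF-Sed for 7, whereas M-HF-Sed was the highest for 19, P-HF-Sed for 14, NC-Sed for 4 and M-HF-Ex for 1.

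The members did not vary as 1 block from animal to animal. In a principal component analysis of the log2 values of the 38 genes, the first component held 73.3% of the variance and the second 15.3%, and the first set 24 genes against 14. Ndufa7, Ndufa13, Ndufs5, Ndufs7 and Ndufb7 led the larger set, and Ndufab1, Ndufb2, Ndufb5, Ndufb4 and Ndufs1 the smaller one. Pairs of members had a median correlation of 0.39 over the 15 libraries, with 46.7% of the 703 pairs above 0.5 and 14.9% below -0.5, against 11.9% and 11.3% of pairs of all genes tested. The core subunits were divided too: Ndufs8 and Ndufv1 each had a correlation of 0.97 with Ndufs7, while Ndufs1 had -0.69 and Ndufv2 -0.59.

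**Figure D3:**
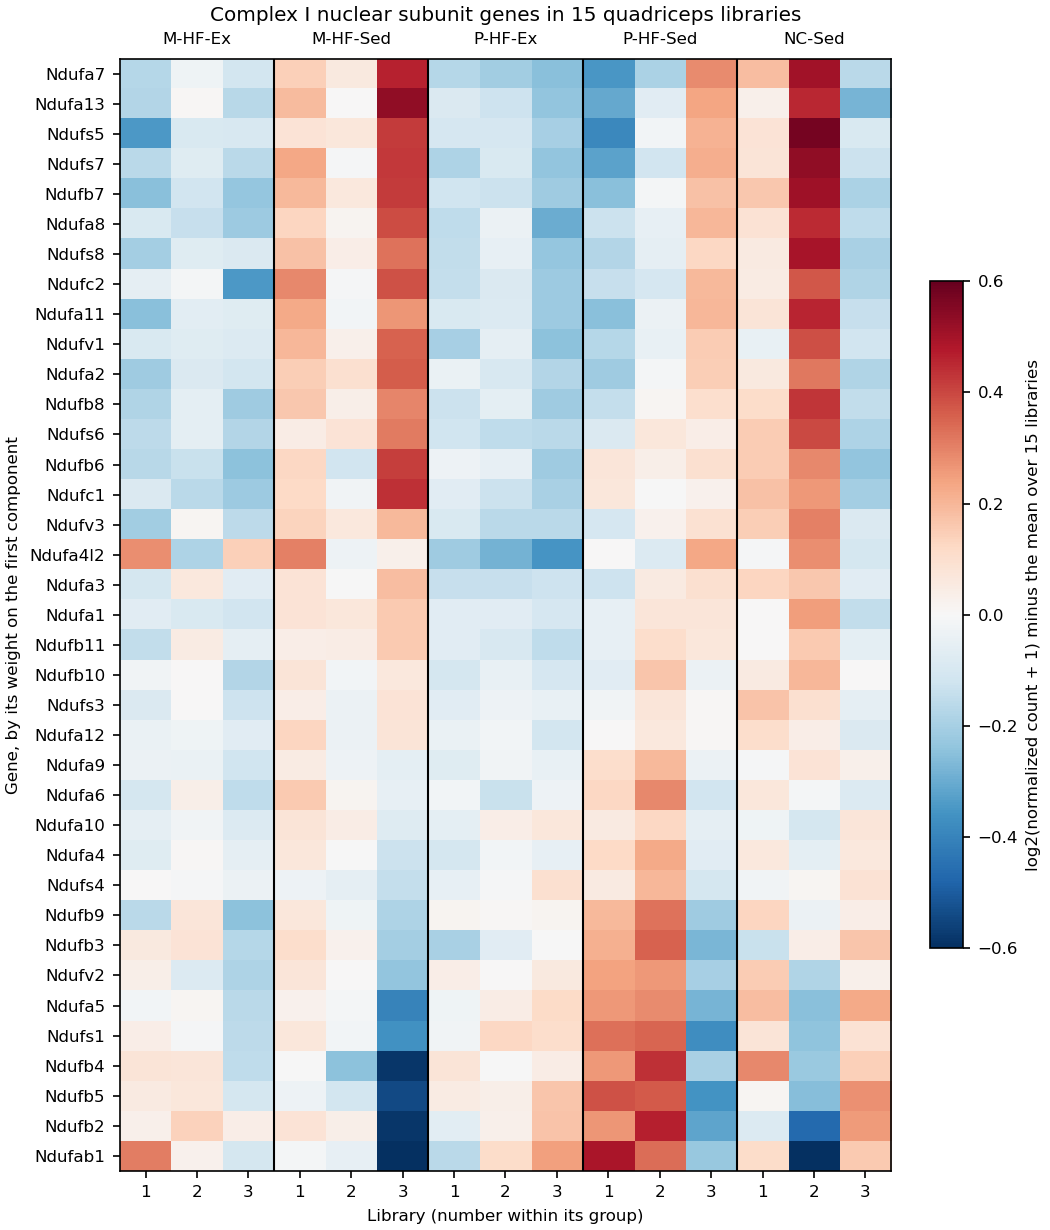
Deviation of 37 of the 38 genes (rows, ordered by first component), each from its own mean, on the log2(normalized count + 1) scale in the 15 libraries (columns, by group). M-HF-Sed 3 and NC-Sed 2 show the upper genes high and the lower genes low, P-HF-Sed 1 shows the reverse, and the M-HF-Ex and P-HF-Ex columns are pale and mostly below the mean.

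The libraries at the ends of this component were not those of 1 group. M-HF-Sed 3 scored 2.02 and NC-Sed 2 scored 1.97, with P-HF-Sed 3 the next highest, against -1.17 in P-HF-Sed 1, -0.98 in P-HF-Ex 3 and -0.85 in NC-Sed 3. M-HF-Sed 3 and NC-Sed 2 were the 2 libraries with the fewest detected genes. Ndufab1 had 388 normalized counts in both of them, against 835 in P-HF-Sed 1, and Ndufs7 had 8904 and 9604 against 5321. The component followed the base composition of the transcripts: the weight of a gene had a correlation of 0.60 (Spearman 0.61) with the GC content of its principal transcript. With the logarithm of its length the correlation was -0.55 (Spearman -0.45). Both were taken over 38 genes measured in the same libraries. The larger set had a median GC content of 54.6% and a median length of 796 bases, and the smaller set 46.6% and 1262 bases. Over all genes tested, the deviation of a library also went with GC content, with correlations from -0.43 in P-HF-Sed 1 to 0.47 in NC-Sed 2.

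**Figure D4:**
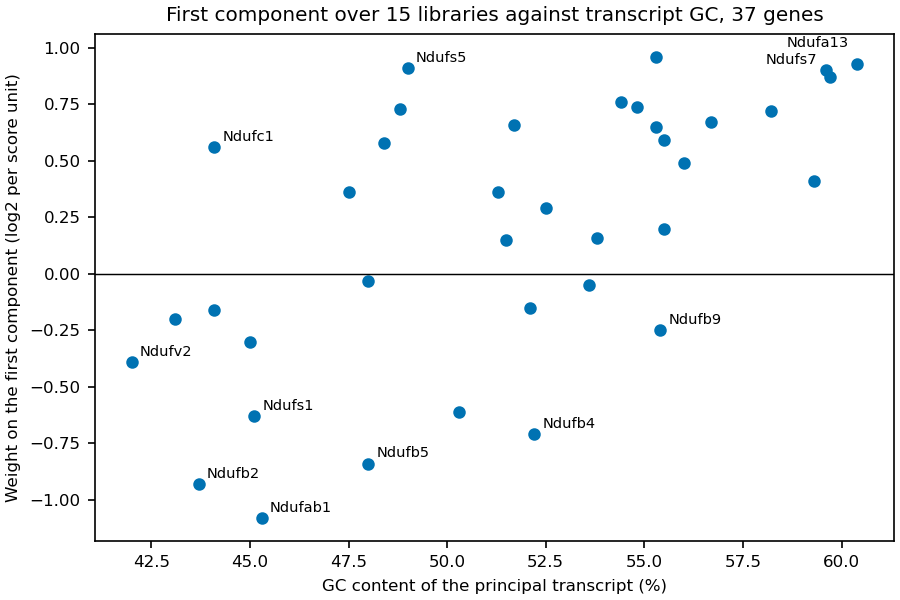
Weight of 37 of the 38 genes on the first component (y axis) against the GC content of its principal transcript in percent (x axis). The gene richest in GC, Ndufa13 at 60.4%, has a weight of 0.93 and the gene poorest in GC, Ndufv2 at 42.0%, has -0.39, while Ndufc1 at 44.1% has 0.56; the correlation over all 38 is 0.60.

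When the trend with GC content was removed from each library, 38 of 38 members were still lower in P-HF-Ex than in P-HF-Sed, with a median of -0.11, and 29 of 38 in M-HF-Ex than in M-HF-Sed, with a median of -0.13. The first component then held 63.5% of the variance, and 7.82% of the pairs stayed below -0.5. Leaving out M-HF-Sed 3 and NC-Sed 2 gave 38 and 33 members lower, with medians of -0.12 in both arms. Neither library is in the paternal groups, so the paternal count and median could not change. Leaving out the 4 libraries with hepatocyte transcripts gave 33 in the paternal and 34 in the maternal arm, with medians of -0.15 and -0.18; it leaves P-HF-Sed with 2 animals and M-HF-Sed with 1, which is assumed to vary like the other groups. With the first part of the sample titles, whose meaning the labels do not give, as a covariate, 25 were lower in the paternal arm and 31 in the maternal arm, with medians of -0.10 and -0.20; all 3 M-HF-Sed titles share 1 such code, which also begins that of M-HF-Ex 3. By its construction this fit sets only M-HF-Ex 3 against the 3 M-HF-Sed animals, and only P-HF-Ex 2 against P-HF-Sed 1 and 2. Each value of this fit thus rests on 1 offspring of an exercised dam. Scaled to library totals instead of size factors, 38 were lower in the paternal arm, with a median of -0.20 and a median of all genes of -0.08, and 21 in the maternal arm, with a median of -0.02 and a median of all genes of 0.11.

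The complex I genes of the mitochondrial genome had higher means in offspring of exercised dams, with M-HF-Sed 3 and P-HF-Sed 3 the lowest library of each arm. Of the 7, 5 were tested (mt-Nd1, mt-Nd2, mt-Nd4, mt-Nd5 and mt-Nd6), while mt-Nd4l had no read and mt-Nd3 next to none. All 5 had a higher mean in M-HF-Ex than in M-HF-Sed, with a median log2 difference of 0.59, and in P-HF-Ex than in P-HF-Sed, with a median of 0.24, and 0 had an unadjusted p under 0.05 by limma. The difference in the paternal arm was -0.19 in the fit with title codes, which rests on P-HF-Ex 2 alone, and 0.08 after the GC trend was removed, with 4 of 5 higher, and that in the maternal arm was 0.17 without M-HF-Sed 3 and NC-Sed 2 and 0.07 without the 4 libraries with hepatocyte transcripts, which leaves 1 M-HF-Sed animal. mt-Nd6, the only one of them encoded on the light strand, had 37202, 22135 and 25185 normalized counts in M-HF-Ex, against 25791, 20937 and 8331 in M-HF-Sed. It had 28375, 29022 and 35697 normalized counts in P-HF-Ex, against 31568, 28353 and 13787 in P-HF-Sed, and 21989, 8418 and 25789 in NC-Sed. For mt-Nd5 the normalized counts were 99521, 100973 and 123339 in P-HF-Ex, against 108196, 114251 and 60449 in P-HF-Sed. For mt-Nd2 they were 65476, 61955 and 74918 in P-HF-Ex, against 71176, 70408 and 32746 in P-HF-Sed. For mt-Nd5 and mt-Nd2, P-HF-Sed 1 and 2 lay above P-HF-Ex 1 and 2, so the higher paternal mean rested on P-HF-Sed 3. The low values in M-HF-Sed 3, P-HF-Sed 3 and NC-Sed 2 lay in the libraries at the upper end of the first component of the nuclear genes, and the part of this in the difference between groups was not tested.

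**Figure D5:**
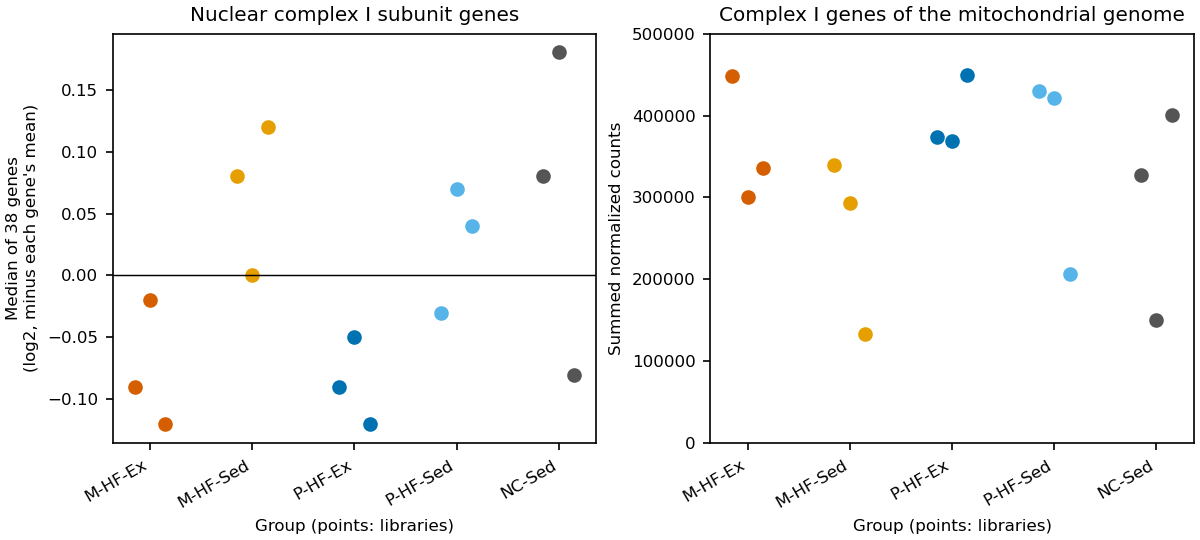
Left, the median over the 38 nuclear genes of the log2 deviation from each gene's mean (y axis) in each library, by group (x axis); right, the summed normalized counts of the complex I genes of the mitochondrial genome in the same libraries. On the left M-HF-Ex (-0.12 to -0.02) lies below M-HF-Sed (-0.00 to 0.12), and P-HF-Ex (-0.12 to -0.05) below P-HF-Sed (-0.03 to 0.07). The gap in each arm is smaller than the SD of 0.075 between replicates. P-HF-Sed 1 and 1 NC-Sed library lie within the M-HF-Ex range. On the right M-HF-Sed 3, P-HF-Sed 3 and NC-Sed 2 are the lowest.

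The genes of the other respiratory complexes also had lower means, mostly in both arms. Of 40 nuclear genes of complexes II to V, 34 had a lower mean in M-HF-Ex than in M-HF-Sed (median log2 difference -0.17) and 38 in P-HF-Ex than in P-HF-Sed (median -0.13), and limma called 0 of them. By the F test over the groups Atp5g1 and Atp5k, of the ATP synthase, and Cyc1, cytochrome c1 of complex III, had the smallest p of this list. Atp5g1 averaged 3882 ± 189 normalized counts in M-HF-Ex and 4754 ± 272 in M-HF-Sed, and 3896 ± 193 in P-HF-Ex and 4494 ± 165 in P-HF-Sed (SD, n = 3 each). Atp5k averaged 3484 ± 247 normalized counts in M-HF-Ex and 4573 ± 517 in M-HF-Sed, and 3488 ± 40.7 in P-HF-Ex and 4103 ± 440 in P-HF-Sed. Neither gene overlapped between exercised and sedentary groups in either arm, and neither passed the adjustment. Cyc1 averaged 6908 ± 391 normalized counts in M-HF-Ex and 8234 ± 387 in M-HF-Sed, and 6923 ± 435 in P-HF-Ex and 7592 ± 321 in P-HF-Sed, overlapping in the paternal arm.

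The assembly factors of complex I, which build the enzyme without being part of it, did not share a direction. Of 19 tested, 13 had a lower mean in M-HF-Ex than in M-HF-Sed (median log2 difference -0.09, 0.01 when scaled to library totals) and 9 in P-HF-Ex than in P-HF-Sed (median 0.02, -0.06 when scaled to library totals), and 0 were called by limma. Ndufaf8 averaged 291 ± 25.1 normalized counts in M-HF-Ex and 399 ± 50.8 in M-HF-Sed, without overlap, and 301 ± 15.4 in P-HF-Ex and 338 ± 59.0 in P-HF-Sed, with overlap. Foxred1 averaged 510 ± 87.4 normalized counts in M-HF-Ex and 495 ± 8.07 in M-HF-Sed, and 462 ± 23.8 in P-HF-Ex and 527 ± 40.2 in P-HF-Sed. Tmem186 averaged 590 ± 49.4 normalized counts in M-HF-Ex and 601 ± 30.7 in M-HF-Sed, and 691 ± 37.4 in P-HF-Ex and 581 ± 74.5 in P-HF-Sed, a log2 difference of 0.26 ± 0.11 (SE) in the paternal arm with overlapping values. Among the iron-sulfur cluster assembly genes 9 of 14 were lower in each arm, and Fdxr, the ferredoxin reductase, averaged 107 ± 17.6 normalized counts in M-HF-Ex and 145 ± 13.2 in M-HF-Sed, and 95.5 ± 9.93 in P-HF-Ex and 119 ± 16.6 in P-HF-Sed.

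Of 12 regulators of mitochondrial biogenesis, 7 had a lower mean in M-HF-Ex than in M-HF-Sed and 5 in P-HF-Ex than in P-HF-Sed, and limma called 0. Ppargc1b, a coactivator of mitochondrial genes, averaged 122 ± 29.0 normalized counts in M-HF-Ex and 175 ± 15.4 in M-HF-Sed, and 126 ± 9.21 in P-HF-Ex and 178 ± 38.7 in P-HF-Sed, without overlap in either arm. Its log2 differences were -0.54 ± 0.22 (SE) and -0.48 ± 0.22. Gabpb1, a subunit of an ETS-family factor that activates respiratory genes, averaged 124 ± 13.8 normalized counts in M-HF-Ex and 78.7 ± 24.4 in M-HF-Sed, a log2 difference of 0.69 ± 0.22 (limma, adjusted p = 0.516). In the paternal arm it averaged 127 ± 19.4 normalized counts in P-HF-Ex and 107 ± 2.48 in P-HF-Sed, with overlap. Yy1, which encodes the factor YY1, averaged 507 ± 97.2 normalized counts in M-HF-Ex and 416 ± 36.7 in M-HF-Sed, and 539 ± 27.1 in P-HF-Ex and 487 ± 43.6 in P-HF-Sed, with overlap in both arms. The transcript of citrate synthase (Cs) differed on the log2 scale by -0.10 ± 0.10 (SE) in the maternal and -0.02 ± 0.10 in the paternal arm. Of the 12 genes listed for mitochondrial mass, Cs among them, 7 were lower in each arm. Mitochondrial mass itself was not measured.

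Markers of fibre type also had other means in the exercise comparisons. Of 10 slow fibre genes, 8 had a lower mean in M-HF-Ex than in M-HF-Sed (median log2 difference -0.33) and 10 in P-HF-Ex than in P-HF-Sed (median -1.05), and limma called 0. Myh7, the slow myosin heavy chain, had 30503, 26484 and 14133 normalized counts in M-HF-Ex, against 41403, 34680 and 25919 in M-HF-Sed. It had 3842, 27089 and 23600 normalized counts in P-HF-Ex, against 33449, 32614 and 24960 in P-HF-Sed, and 8832, 30628 and 38166 in NC-Sed. P-HF-Ex 1 and NC-Sed 1 were far below the other libraries, and the 10 slow fibre genes together summed to 17625 and 30449 normalized counts there, against 49735 to 122030 elsewhere. The median deviation of the members was -0.09 in P-HF-Ex 1, with 34 members below their own mean, and 0.08 in NC-Sed 1, with 8. Of 10 fast fibre genes, 9 were lower in the maternal and 4 in the paternal arm. The 14 hepatocyte genes were all lower in M-HF-Ex than in M-HF-Sed, with a median log2 difference of -5.31 (summed normalized counts of 224 to 598 in M-HF-Ex and 257 to 81773 in M-HF-Sed), and 7 were lower in the paternal arm. All 5 erythrocyte genes were higher in P-HF-Ex than in P-HF-Sed, with a median of 1.09 and summed normalized counts of 1459 to 3271 in P-HF-Ex and 721 to 1296 in P-HF-Sed. The part of fibre type and of these other cell types in the lower complex I transcripts was not tested.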

How the data were processed

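Total RNA of quadriceps muscle was extracted with TRIzol and sequenced as ribosome-depleted, stranded libraries in single reads of 100 bases, as the labels' protocols state. STAR 2.5.2b, featureCounts 1.5.2, DESeq2 1.11.8 and the mouse build mm10 are named per the submitters' processing notes. The deposited values are a normalized signal per gene: in each library they are whole multiples of the value of 1 read, so that whole counts were recovered for 100% of the deposited values (tolerance 0.001), with 1 scaling factor a library. These values are called normalized counts.

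Gene symbols came from GENCODE M21, which matched 99.6% of identifiers. Genes with a mean of at least 10 normalized counts over 15 libraries (13499) were tested with limma 3.58.1 (trend) on log2(value + 1), with 5 groups in 1 fit, 8 contrasts and an F test, and Benjamini-Hochberg adjustment over all genes tested. A log2 difference on this scale understates changes of low genes. Because the deposited unit is not counts, edgeR 4.0.16, DESeq2 1.42.0 and limma voom on the recovered reads are alternatives: edgeR and voom called 0 genes in each comparison, and DESeq2 called 0 to 186. R was 4.3.3. The fit was tested on simulated data. Replicate numbers follow accession order and pair nothing.

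The members and gene lists were chosen with earlier results of these data known. Values in each sample are given for the core subunits, Ndufa4 and Ndufa4l2, members past an adjusted p of 0.05, the 3 members with the smallest unadjusted p in each comparison and in the F test, and further members picked for their values, among them Ndufa1, Ndufb6 and Ndufs6. From other lists the 3 genes with the smallest F test p were eligible. Lists not described elsewhere gave, as members lower in the maternal and in the paternal exercise comparison, supercomplex factors 2 and 3 of 3, skeletal muscle 4 and 1 of 6, adipocyte 5 and 1 of 6, endothelial 2 and 6 of 6, macrophage 4 and 5 of 5, Schwann cell 5 and 4 of 5 and cardiac muscle 1 and 2 of 2. Depth was 18457663 to 26981745 reads. 1 member counted in the totals is not reported here by name. Ndufb1 and, for promoters, genes absent from RefSeq were not analysed here.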

Additional observations from a re-analysis of the deposited data

How the results depend on the processing

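Of 767 summary values recomputed under 30 alternatives, 746 moved by less than the limit set for them (1 SD between replicates, or 1.5 times for a count) and 21 by more. No alternative called any member. These values are the genes called, the members called and the members' medians. The counts of members lower and of members at an unadjusted p under 0.05 are left out of the tally. It includes alternatives that drop a library outside the comparison. DESeq2 on recovered reads called 18 genes in M-HF-Sed against NC-Sed, 60 in M-HF-Ex against M-HF-Sed, 65 in P-HF-Ex against NC-Sed, 1 in P-HF-Ex against P-HF-Sed and 186 over the 5 groups, against 0 with limma in each. With the title code as a covariate 16 genes were called in M-HF-Ex against M-HF-Sed, where the members' median was -0.20, 11 in P-HF-Ex against P-HF-Sed and 1 for the difference between the exercise comparisons; these rest on 1 exercised animal per arm. This covariate could not be fitted for M-HF-Sed against NC-Sed, M-HF-Ex against NC-Sed, M-HF-Sed against P-HF-Sed and the F test. Scaled to library totals, the members' medians were -0.06 in M-HF-Ex against NC-Sed, -0.02 in M-HF-Ex against M-HF-Sed, 0.09 in P-HF-Sed against NC-Sed, -0.20 in P-HF-Ex against P-HF-Sed, -0.08 in M-HF-Sed against P-HF-Sed and 0.16 for the difference between the exercise comparisons. The cause was not tested. The members' median kept its sign under each alternative run in the exercise comparisons and in those of exercised groups with NC-Sed. It changed sign with library totals in M-HF-Sed against P-HF-Sed (0.04 by size factors), P-HF-Sed against NC-Sed (-0.01) and the difference between the exercise comparisons (-0.03). In P-HF-Sed against NC-Sed it was also 0.01 with TMM scaling, 0.04 without the 4 libraries with hepatocyte transcripts and 0.02 without M-HF-Sed 3 and NC-Sed 2, and in M-HF-Sed against NC-Sed (0.03) it was -0.01 with the GC trend removed.

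With 1 animal left out at a time, the genes called ranged over 0 to 1 in M-HF-Sed against NC-Sed, 0 to 109 in M-HF-Ex against M-HF-Sed (109 without M-HF-Sed 1), 0 to 1 in P-HF-Ex against NC-Sed and 0 to 1 in P-HF-Ex against P-HF-Sed. The members' medians ranged over -0.05 to 0.08 in M-HF-Sed against NC-Sed, -0.19 to -0.09 in M-HF-Ex against NC-Sed, -0.17 to -0.10 in M-HF-Ex against M-HF-Sed, -0.10 to 0.02 in P-HF-Sed against NC-Sed, -0.21 to -0.09 in P-HF-Ex against NC-Sed, -0.15 to -0.08 in P-HF-Ex against P-HF-Sed, 0.02 to 0.08 in M-HF-Sed against P-HF-Sed and -0.08 to -0.01 for the difference between the exercise comparisons.

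No paired analysis was possible because the replicate numbers only follow accession order. The alternatives without M-HF-Sed 3 and NC-Sed 2 and with the GC trend removed were chosen after seeing the data. Ndufa4l2 was -0.02 in M-HF-Ex against M-HF-Sed and 0.08 when scaled to library totals.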
